A study of Mus musculus with 8 samples.

Results

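The genes described here were 55 nuclear genes of mitochondrial energy metabolism: 21 subunits of complex I, 4 of complex II, 6 of complex III, cytochrome c, 9 subunits of complex IV, 5 of the ATP synthase and 9 enzyme genes of the citrate cycle. They were chosen by name from a list, and each gene took its value from the assembled mm9 locus that overlapped the annotated gene best, with a shared length of at least 0.5 of the span of both together. Of the 55 genes, 52 had such a locus in all 8 libraries, among 20197 genes matched in the whole series. All 52 reached an FPKM (a fragment count divided by transcript length and by the mapped fragments of that library) of 1 in at least 2 libraries and were tested among 10284 genes.

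RNA-Seq was performed on NIH3T3 cells, fibroblasts from mouse embryos in which the Hedgehog pathway can be switched on by ligand, in 4 conditions with 2 libraries each. All cells had been transfected and selected with Zeocin. Control and Hh-CM cells carried the empty pcDNA3.1 (Zeo+) vector, and Esrrb and Esrrb+Hh-CM cells carried the same vector with Esrrb, an orphan nuclear receptor. Each line was a pool of the cells established from 2 transfections. A difference between the vectors therefore cannot be told apart from another difference between the selected lines. Hh-CM, medium of HEK293 cells (a line from human embryonic kidney) that express the N-terminal fragment of Sonic Hedgehog from a transgene, was given to confluent cells at a dilution of 1:100 for 48 h, and Control and Esrrb cells received medium of HEK293 cells without the transgene. The study's methods call the 2 libraries of a condition biological replicates, but do not say which transfection or culture each came from, so the p-values measure the spread between these libraries, which may in part be technical.

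In the respiratory chain, complexes I and II pass electrons from NADH and succinate to ubiquinone, complex III passes them to cytochrome c, and complex IV passes them to oxygen. The proton gradient built on the way drives the ATP synthase, and the citrate cycle in the matrix supplies NADH and succinate. The subunits described here are encoded in the nucleus, and oestrogen-related receptors, the family of Esrrb, are known to bind near many such genes together with the coactivator that Ppargc1a encodes.

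Esrrb itself, on chromosome 12 of mm9 from 87702067 to 87862578, was listed at an FPKM of 0 in both Control libraries, at 0.0281 and 0.0203 in the Hh-CM libraries, and at 0 in all 4 libraries labelled Esrrb or Esrrb+Hh-CM. The RNA-Seq values of the targeted gene therefore did not show the Esrrb label, and the groups are called by their labels below. Whether transcripts made from the vector were assigned to this locus cannot be read from these files, so the values of 0 do not show that Esrrb was not expressed. The Hh-CM label was visible in 2 targets of the Hedgehog pathway. Gli1 lay between 26.8 and 34.8 FPKM in the 4 libraries with Hh-CM and between 0.0217 and 0.106 in the 4 without it, and Ptch1 lay between 37.0 and 47.7 against 2.44 to 3.08. All 8 matched fibroblast markers of 9 listed reached 1 FPKM. Their summed FPKM was 5480 to 5523 in Control cells, 5935 to 6385 in Hh-CM cells, 5718 to 5821 in Esrrb cells and 6215 to 6305 in Esrrb+Hh-CM cells, and its part in the results below was not tested. The sum hides single markers that moved in opposite directions. From Control to Esrrb cells the mean of Vim went from 1498 to 1197, Fn1 from 517.8 to 307.2 and Col3a1 from 668.0 to 1005 FPKM. Thy1 went from 87.65 in Control to 397.4 FPKM in Hh-CM cells. Summed markers of epithelial, endothelial and muscle cells reached at most 0.0916, 0.184 and 0.0302 FPKM, with Epcam, Krt18, Kdr, Myod1, Myog and Ckm at 0 in every library, and 3 leukocyte markers summed to between 1.09 and 2.78. Depth relative to Control replicate 1, read from the spacing of low values, was lowest in Esrrb+Hh-CM replicate 2 (0.743) and highest in Hh-CM replicate 2 (1.54). Esrrb replicate 1 and Hh-CM replicate 2 stood apart: 14074 of their numbered loci (16742 and 15474) had the same coordinates, against 6663 to 7046 for the other pairs of libraries. Esrrb replicate 1 also had 4339 repeated locus numbers, against 136 to 147 in the other libraries. For the 52 tested genes, counts of called genes and medians are given below with and without these 2 libraries, and for other lists only in part. Leaving them out keeps 1 Hh-CM and 1 Esrrb library, each assumed to vary like the other groups, and lowers the calls over all genes too. Without them 1.67% of all tested genes were up-regulated and 1.14% down-regulated from Control to Esrrb, 4.01% and 2.62% from Control to Hh-CM, and 17.4% and 9.22% from Control to Esrrb+Hh-CM cells. From Hh-CM to Esrrb+Hh-CM these shares were 2.44% and 1.56%, from Esrrb to Esrrb+Hh-CM 6.67% and 4.77%, and in the interaction 0.321% and 0.253%. In bulk RNA, fewer cells that express a gene and less RNA per cell cannot be told apart.

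Transcripts of these genes were abundant. The mean FPKM over 8 libraries had a median of 83.8 for the 52 tested genes, against 12.4 for all 10284 genes, and all 52 lay above the latter value. In complex I, Ndufa6, an accessory subunit, was highest with a mean of 181.7 FPKM, and Ndufs4, another accessory subunit, was lowest with 33.1 FPKM among the 17 subunits without a value of 0. In complex II the mean ran from 57.0 FPKM for Sdhb, the iron-sulfur subunit, to 105.7 FPKM for Sdhc, a membrane anchor. In complex III it ran from 39.25 FPKM for Uqcrfs1, the Rieske iron-sulfur protein, to 166.2 FPKM for Uqcrb. Complex IV had the highest median level of its subunits, 261.1 FPKM, with 524.5 FPKM for Cox4i1 and 86.1 FPKM for Cox7a2. In the ATP synthase, the catalytic subunit Atp5b had 543.8 FPKM and Atp5d had 167.7 FPKM. The citrate cycle had the widest range, from 16.1 FPKM for Ogdh, the first component of the 2-oxoglutarate dehydrogenase complex, to 178.6 FPKM for Mdh2, the mitochondrial malate dehydrogenase. The ratio of highest to lowest was 11.1 in the citrate cycle, 6.09 in complex IV and 5.49 in complex I. Cycs, which encodes somatic cytochrome c, had a mean of 27.7 FPKM.

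**Figure D1:**
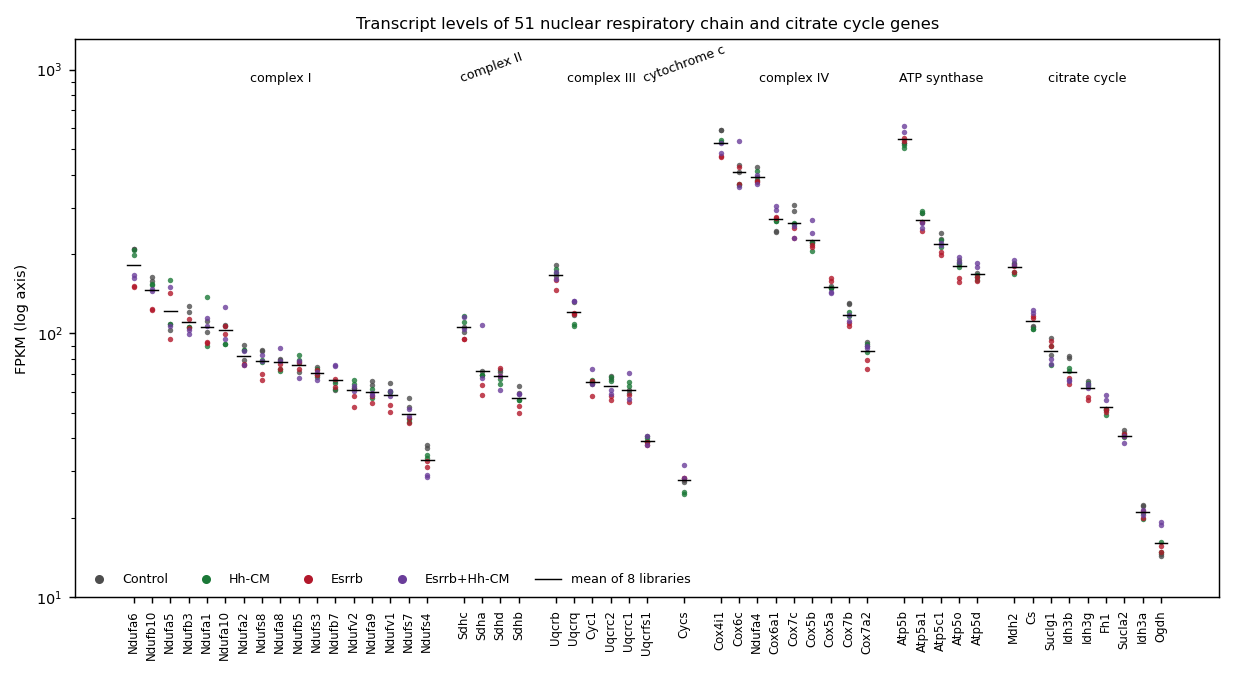
FPKM (log axis) of the 51 tested genes without a value of 0, one column per gene ordered by level within each complex, with 1 point per library coloured by condition and a black line at the mean of 8 libraries. The genes span 16.1 (Ogdh) to 543.8 FPKM (Atp5b), and the highest subunits belong to complex IV and the ATP synthase.

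Ndufs1, Ndufb2, Ndufb8 and Ndufb9 could not be treated as the others, and are given by their listed values. Ndufs1, the largest subunit of complex I (chromosome 1, 63190170 to 63223396), was listed at 50.8 and 54.0 FPKM in the Control libraries, at 0 and 51.4 in the Hh-CM libraries, and at exactly 0 in both Esrrb and both Esrrb+Hh-CM libraries. The other 17 tested complex I genes had 28.5 FPKM or more in every library. Eef1b2, its neighbour on the other strand, was listed at 4976 FPKM in Hh-CM replicate 1 and between 581.0 and 630.7 FPKM in the other 7 libraries. No fold change is given for Ndufs1, although the fit called it between Control and Esrrb+Hh-CM cells (limma adjusted p = 0.0439, standard error 2.64 on the log2 scale). Ndufb8 was joined with Sec31b into 1 locus in 6 libraries, with 128.8 and 135.3 FPKM in Control, 141.0 and 145.4 in Hh-CM, and 133.8 and 146.1 in Esrrb cells, and had a shorter locus with 163.9 and 146.6 FPKM in Esrrb+Hh-CM cells. Ndufb9 was joined with Tatdn1 in 7 libraries at 194.1 to 234.1 FPKM, and its own locus in Control replicate 2 had 184.6 FPKM. Ndufb2 lay between 59.7 and 150.3 FPKM, with the highest value in Control replicate 2, and was joined with Adck2 in Esrrb+Hh-CM replicate 2. These 3 genes were not tested.

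The 2 libraries of a condition lay close together for most of the 51 genes. The standard deviation of the log2 difference between replicates was 0.071 in Control cells, 0.134 in Hh-CM cells, 0.115 in Esrrb cells and 0.165 in Esrrb+Hh-CM cells, against 0.315 to 0.349 over the 10033 tested genes without a 0. Extreme single loci, with a log2 difference of 8.38 in Control cells, enter the standard deviation over all genes. The median absolute log2 difference was less far apart. In the same order of conditions it was 0.044, 0.040, 0.061 and 0.066, against 0.078, 0.076, 0.083 and 0.099 over all genes without a 0. A few of the 51 genes stood out within a condition. Sdha, the flavoprotein of complex II, had 107.3 FPKM in Esrrb+Hh-CM replicate 1, where its locus was longer, and 58.4 to 72.3 FPKM in the other 7 libraries. Ndufa5 had 159.7, 142.8 and 149.5 FPKM in Hh-CM replicate 2, Esrrb replicate 1 and Esrrb+Hh-CM replicate 2, and 95.6 to 108.8 FPKM in the other 5 libraries. Cox6c had 536.0 FPKM in Esrrb+Hh-CM replicate 1 and 357.9 FPKM in replicate 2. None of these 3 genes was called in any comparison by limma.

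Differences between conditions were tested with limma on log2(FPKM + 0.1), where a gene was called at an adjusted p below 0.05 over all 10284 genes. In all, 30 of the 52 genes (57.7%) were called in at least 1 of the 5 comparisons or in the interaction, where 46% of all tested genes were. The shares of all tested genes, here and below, are not matched for level or replicate spread. The median of the mean FPKM was 83.8 for the 52 genes and 12.4 for all tested genes. The part of level in the number of calls was not tested. Every called change other than that of Ndufs1 was small: the largest was -0.48 on the log2 scale (Ndufa6, Control to Esrrb), and none reached a log2 fold change of 1. With 2 libraries per condition, an exact permutation test of a single gene cannot give a p below 0.33, so the calls rest on limma's spread pooled over genes.

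**Figure D2:**
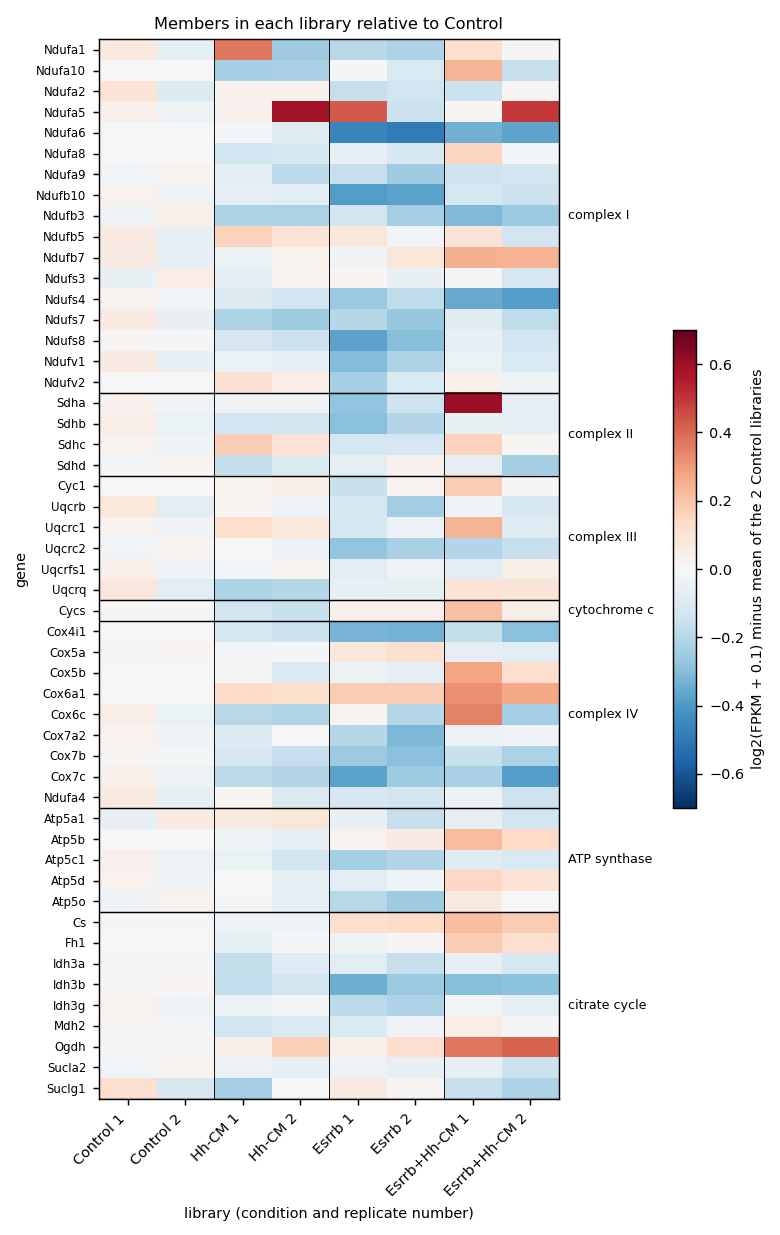
Log2(FPKM + 0.1) of the 51 genes without a value of 0 in each of the 8 libraries (columns), minus the mean of the 2 Control libraries, grouped by complex. Blue prevails in the 2 Esrrb columns, where 40 of 51 genes lay below the Control mean in each library, while Cox6a1, Cs and Ogdh are red in both Esrrb+Hh-CM columns. In each Hh-CM column 37 of 51 genes lay below the Control mean.

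The comparison of Control with Esrrb cells asked how the line with the Esrrb vector differed from that with the empty vector without Hedgehog ligand. Of the 52 genes, 17 were down-regulated and 2 up-regulated in the libraries labelled Esrrb. That is 32.7% and 3.85% of them, where 6.16% of all tested genes were down-regulated and 10.2% up-regulated. The median log2 fold change of the 51 genes without a 0 was -0.12, with 41 below 0 and 10 above, against a median of 0.05 over all tested genes. Of all 10284 tested genes, 4153 were below 0 and 6120 above. Per library, the median difference from the Control mean was -0.12 in Esrrb replicate 1 and -0.14 in replicate 2, with 40 of 51 genes below it in each. Other libraries also had most genes below it: 37 of 51 in each Hh-CM library, and 28 and 36 in the Esrrb+Hh-CM libraries. Control replicate 2 itself had 37 below, so such a tally does not mark the Esrrb libraries alone.

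In complex I, 7 of the 18 tested genes were down-regulated in the libraries labelled Esrrb. The largest change was that of Ndufa6 (chromosome 15, 82180569 to 82184721), with 209.7 and 209.3 FPKM in Control and 151.9 and 149.4 FPKM in Esrrb cells. This was a log2 fold change of -0.48 ± 0.0354 (SE; adjusted p = 0.00138), and the Esrrb libraries lay well below both Control libraries. Ndufb10, an accessory subunit of the membrane arm (chromosome 17, 24859005 to 24861423), had 163.4 and 158.5 FPKM in Control and 122.5 and 124.1 FPKM in Esrrb cells, again without overlap (log2 -0.38 ± 0.0312 SE, adjusted p = 0.00169). Ndufs8, which carries iron-sulfur clusters, fell from 86.8 and 85.8 FPKM to 66.5 and 70.1 FPKM (log2 -0.34, adjusted p = 0.00706). The other 4 were Ndufv1, the flavin-binding subunit, Ndufs4, Ndufs7 and Ndufa9, with log2 fold changes between -0.26 and -0.20.

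Each other complex had at least 1 down-regulated gene in the same comparison. In complex II it was Sdhb, with 63.4 and 59.3 FPKM in Control and 49.96 and 53.3 FPKM in Esrrb cells (log2 -0.25). In complex III it was Uqcrc2, a core protein, with 67.2 and 68.8 against 56.0 and 58.1 FPKM (log2 -0.25). In complex IV, 4 of 9 genes fell, namely Cox4i1, Cox7c, Cox7b and Cox7a2, by log2 values between -0.33 and -0.26. Cox4i1, the nuclear subunit 4 of complex IV (chromosome 8, 123192190 to 123198109), had 590.2 and 588.1 FPKM in Control and 469.9 and 467.9 FPKM in Esrrb cells (adjusted p = 0.0089). In the ATP synthase, Atp5c1 and Atp5o, subunits of its central and peripheral stalks, each fell by 0.22 on the log2 scale. In the citrate cycle, 2 of the 3 subunits of the NAD-dependent isocitrate dehydrogenase fell, Idh3b by 0.30 and Idh3g by 0.20, while Idh3a was not called. Idh3b (chromosome 2, 130105045 to 130110283) had 80.5 and 82.0 FPKM in Control and 64.1 and 67.8 FPKM in Esrrb cells.

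Cox6a1 and Cs went the other way. Cox6a1, the widely expressed form of complex IV subunit 6a (chromosome 5, 115795651 to 115798990), had 244.9 and 243.2 FPKM in Control and 275.6 and 274.5 FPKM in Esrrb cells (log2 0.17 ± 0.0301 SE, adjusted p = 0.0176). Cs, the citrate synthase that opens the cycle (chromosome 10, 127774888 to 127799535), had 106.9 and 105.4 against 114.7 and 116.4 FPKM (log2 0.12 ± 0.0305 SE, adjusted p = 0.0473). The count of 19 called genes was 4 without Control replicate 1, 8 without Control replicate 2, 6 without Esrrb replicate 1 and 7 without Esrrb replicate 2, and 2 without both Esrrb replicate 1 and Hh-CM replicate 2, namely Ndufa6 and Ndufs1 with its values of 0. The median of the 51 genes without both was -0.14, and with FPKM rescaled to equal medians of log ratios it was -0.16. Ndufa6, Ndufb10, Ndufs8 and Idh3b stayed called whichever single library was left out.

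Control was compared with Hh-CM cells to ask what Hedgehog ligand changed in cells with the empty vector. Of the 52 genes, 3 were down-regulated (5.77%) and 1 up-regulated (1.92%), where 7.53% of all tested genes were down-regulated and 10.5% up-regulated. Ndufb3, an accessory subunit of complex I, had 120.6 and 126.8 FPKM in Control and 106.0 FPKM in both Hh-CM libraries (log2 -0.22). Ndufs7, an iron-sulfur subunit, had 57.15 and 52.75 against 47.2 and 46.2 FPKM (log2 -0.23), and Uqcrq, a small subunit of complex III, had 131.3 and 117.9 against 107.0 and 108.5 FPKM (log2 -0.21). Cox6a1 rose to 267.7 and 266.0 FPKM (log2 0.13 ± 0.0301 SE, adjusted p = 0.0362). The groups did not overlap for these 4 genes, but the Control libraries of Uqcrq lay further apart than its Hh-CM libraries. The median log2 fold change of the 51 genes was -0.05, with 40 below 0 and 11 above. Over all tested genes it was 0.04, with 4408 below 0 and 5876 above. The count of 4 was 0 without Control replicate 1 or without Hh-CM replicate 1 (limma, adjusted p), and 1 without Control replicate 2, Esrrb replicate 1 or Esrrb replicate 2. Without Hh-CM replicate 2, or without both Esrrb replicate 1 and Hh-CM replicate 2, the 1 call left was Ndufs1 with its values of 0, and the median of the 51 genes was -0.05. It was 7 without either Esrrb+Hh-CM library. With FPKM rescaled to equal medians of log ratios, 8 genes were down-regulated and none up-regulated, and the median of the 51 genes was -0.08.

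Control and Esrrb+Hh-CM cells differed in the vector and the ligand together. In this comparison 10 of the 52 genes were down-regulated (19.2%, where 12% of all tested genes were) and 6 up-regulated (11.5%, where 23% were). The 10 include Ndufs1 with its values of 0. Complex I held 4 of the other 9. Ndufs4 (chromosome 13, 115078003 to 115178302) had 37.8 and 36.7 FPKM in Control and 29.15 and 28.5 FPKM in Esrrb+Hh-CM cells (log2 -0.37 ± 0.0439 SE, adjusted p = 0.00186). Ndufa6 was at 166.1 and 162.4 FPKM (log2 -0.35), Ndufb3 at 99.9 and 103.3 FPKM (log2 -0.28) and Ndufb10 at 147.9 and 145.0 FPKM (log2 -0.14). The rest were Cox7c, Cox4i1, Cox7b, Uqcrc2 and Idh3b, with log2 fold changes between -0.31 and -0.18. Both Esrrb+Hh-CM libraries lay below both Control libraries for each of the genes named here.

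Of the 6 up-regulated genes, 3 encode citrate cycle enzymes. Ogdh (chromosome 11, 6191636 to 6256645) had 14.3 and 14.6 FPKM in Control cells, 14.8 and 16.2 in Hh-CM cells, 14.8 and 15.7 in Esrrb cells and 18.8 and 19.3 FPKM in Esrrb+Hh-CM cells. Only the Esrrb+Hh-CM libraries stood apart from the Control libraries by the test (log2 0.40 ± 0.0593 SE, adjusted p = 0.00444), and the interaction for Ogdh was not called (log2 0.22 ± 0.0839 SE, adjusted p = 0.255). Cs had 123.2 and 120.0 FPKM in Esrrb+Hh-CM cells (log2 0.20), and Fh1, fumarase, had 58.2 and 55.8 FPKM against 51.5 and 51.7 in Control (log2 0.14). Cox6a1 reached 304.6 and 294.2 FPKM, the highest of the 4 conditions (log2 0.29 ± 0.0301 SE, adjusted p = 0.00106). Atp5b had 611.9 and 580.3 against 524.8 and 528.3 FPKM (log2 0.18), and Ndufb7, an accessory subunit of complex I, had 75.7 and 75.3 against 66.3 and 61.1 FPKM (log2 0.25). The median log2 fold change of the 51 genes was -0.04 and that of all tested genes was 0.08. Without Control replicate 1 the median of the 51 genes lay at 0 within rounding, without Esrrb+Hh-CM replicate 1 it was -0.09, and with rescaled FPKM it was -0.125. The balance of the calls turned with single libraries: it was 10 up and 7 down without Esrrb+Hh-CM replicate 2, 5 up and 4 down without Control replicate 1, 3 up and 5 down without Control replicate 2, and 3 up and 20 down with rescaled FPKM. Without both libraries that share loci 4 rose and 7 fell, Ndufs1 included, and the median was -0.04. Ndufa6, Ndufs4, Ndufb3, Idh3b, Cox6a1, Cs and Ogdh stayed called under each left-out library.

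**Figure D3:**
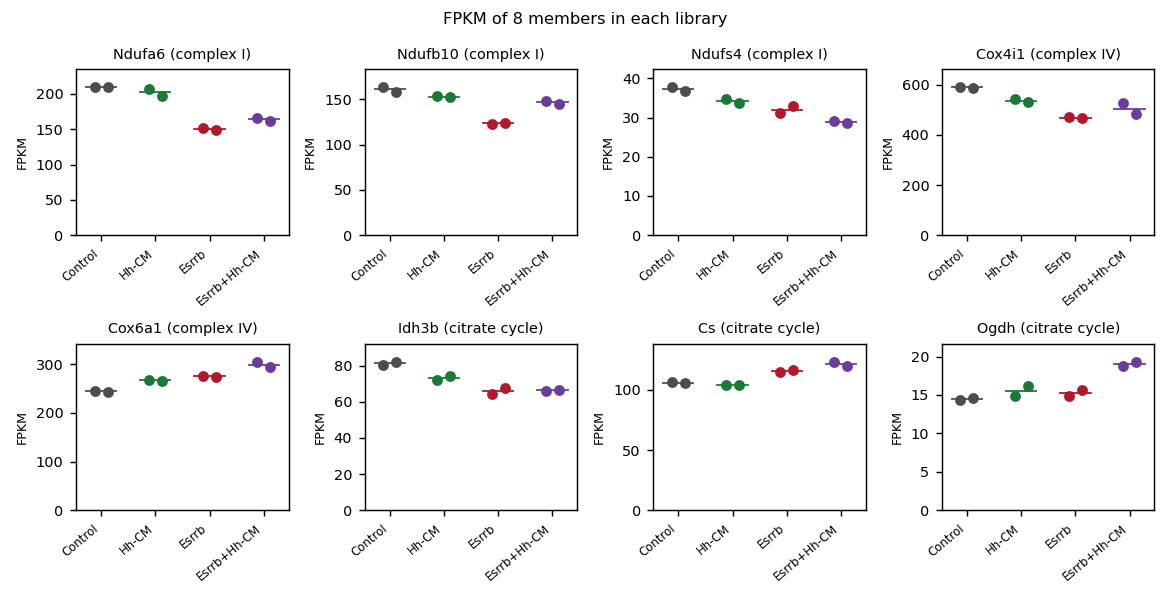
FPKM (axes from 0) of 8 genes in each library, with 2 points per condition and a line at their mean. Ndufa6 shows 4 high values (197.6 to 209.7) without and 4 low values (149.4 to 166.1) with the Esrrb label, Cox6a1 lies higher than in Control (243.2 to 244.9) in Esrrb+Hh-CM cells (294.2 to 304.6), and Ogdh is highest in the 2 Esrrb+Hh-CM libraries (18.8 and 19.3).

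The comparison of Hh-CM with Esrrb+Hh-CM cells asked how the line with the Esrrb vector differed from that with the empty vector in the presence of ligand. Here 10 of 52 genes were up-regulated (19.2%, where 12.4% of all tested genes were) and 3 down-regulated (5.77%, where 6.52% were). The median log2 fold change of the 51 genes was nevertheless -0.01, with 23 above 0 and 28 below, against 0.05 over all tested genes. This median of the 51 genes was 0.01 without Hh-CM replicate 2 and 0.02 without Esrrb+Hh-CM replicate 2. It was -0.04 without Esrrb+Hh-CM replicate 1 and -0.06 with rescaled FPKM. The 3 down-regulated genes were Ndufa6, from 207.4 and 197.6 to 166.1 and 162.4 FPKM (log2 -0.30 ± 0.0354 SE, adjusted p = 0.005), Ndufs4 (log2 -0.25) and Uqcrc2 (log2 -0.16). Among the up-regulated genes, Uqcrq went from 107.0 and 108.5 to 133.0 and 132.3 FPKM (log2 0.30 ± 0.0532 SE, adjusted p = 0.0161). Cycs went from 25.15 and 24.8 to 31.75 and 28.4 FPKM (log2 0.27), and its Esrrb+Hh-CM libraries lay further apart than its Hh-CM libraries. Ogdh, Cs and Fh1 of the citrate cycle, Atp5b and Atp5d of the ATP synthase, Cox5b and Cox6a1 of complex IV and Ndufb7 of complex I made up the rest, with log2 fold changes between 0.15 and 0.29. With rescaled FPKM the split was 6 up-regulated and 5 down-regulated. The count of 13 was 3 without Hh-CM replicate 1 (1 up and 2 down, Ndufs1 included) or Hh-CM replicate 2 (2 up and 1 down), 6 without Esrrb+Hh-CM replicate 1 (3 up and 3 down), 8 without Control replicate 1, Control replicate 2, Esrrb replicate 1 or Esrrb replicate 2, and 1 without both libraries that share loci (Ndufa6, with a median of 0.01 over the 51 genes). Ndufa6 and Cs stayed called under each left-out library.

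The comparison of Esrrb with Esrrb+Hh-CM cells asked what ligand changed in cells with the Esrrb vector. Of 52 genes, 13 were up-regulated (25%, where 13.9% of all tested genes were) and 1 down-regulated (1.92%, where 9.51% were). The median log2 fold change of the 51 genes was 0.11, with 43 above 0 and 8 below, against 0.04 over all tested genes. Up-regulated genes came from complex I (Ndufb10, Ndufs8 and Ndufb7), complex II (Sdhb), complex IV (Cox5b, Cox7a2 and Cox6a1), the ATP synthase (Atp5o, Atp5d and Atp5b) and the citrate cycle (Ogdh, Fh1 and Idh3g). Ndufb10 went from 122.5 and 124.1 to 147.9 and 145.0 FPKM (log2 0.25 ± 0.0312 SE, adjusted p = 0.00307). Atp5o, part of the peripheral stalk, went from 162.9 and 156.8 to 194.4 and 186.0 FPKM (log2 0.25 ± 0.0416 SE, adjusted p = 0.0089). Cox5a, a subunit of complex IV, was the one down-regulated gene, from 158.2 and 162.0 to 143.2 and 142.2 FPKM (log2 -0.17 ± 0.0302 SE, adjusted p = 0.0126). With rescaled FPKM the split was 5 up-regulated and 2 down-regulated, and the median of the 51 genes was 0.08. The count of 14 was 4 without Esrrb replicate 1, 5 without Esrrb replicate 2 or Esrrb+Hh-CM replicate 1, 9 without Control replicate 1, Control replicate 2, Hh-CM replicate 1 or Hh-CM replicate 2, and 1 without both libraries that share loci (Cox7a2, with a median of 0.12 over the 51 genes). Ndufb10 stayed called under each left-out library.

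The responses to ligand with and without the Esrrb vector were compared by the interaction, the change from Esrrb to Esrrb+Hh-CM cells minus the change from Control to Hh-CM cells. Of 52 genes, 1 had a higher response in cells with the vector (1.92%, where 0.758% of all tested genes did) and none had a lower one (0.593% of all tested genes). At an unadjusted p below 0.05, limma listed 25 of the 52 genes (48.1%) and 18% of all tested genes in either direction. The called gene was Ndufb10, whose ligand response was -0.07 on the log2 scale with the empty vector and 0.25 with the Esrrb vector, a difference of 0.32 ± 0.0441 (SE, adjusted p = 0.0401). Its values were 163.4 and 158.5 FPKM in Control cells, 153.3 and 152.7 in Hh-CM cells, 122.5 and 124.1 in Esrrb cells and 147.9 and 145.0 FPKM in Esrrb+Hh-CM cells, so the Esrrb libraries were the low pair. The median interaction of the 51 genes was 0.18, with 41 above 0 and 10 below, against 0.00079 over all tested genes. This median, that from Control to Esrrb and that from Esrrb to Esrrb+Hh-CM cells draw on the same Esrrb libraries. They are therefore not separate lines of evidence. Ndufb10 lost its call in each fit with 1 library left out, and the count of 1 was 0 without Control replicate 1, Hh-CM replicate 1, Esrrb replicate 1, Esrrb replicate 2 or Esrrb+Hh-CM replicate 1, and 2 without Esrrb+Hh-CM replicate 2 (Sdha and Ndufa10). It was 1 without Control replicate 2 (Uqcrq) and 1 without Hh-CM replicate 2 or without both libraries that share loci (Ndufs1 with its values of 0). Without both, the interaction of Ndufb10 was 0.31 (adjusted p = 0.257) and the median of the 51 genes was 0.15.

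**Figure D4:**
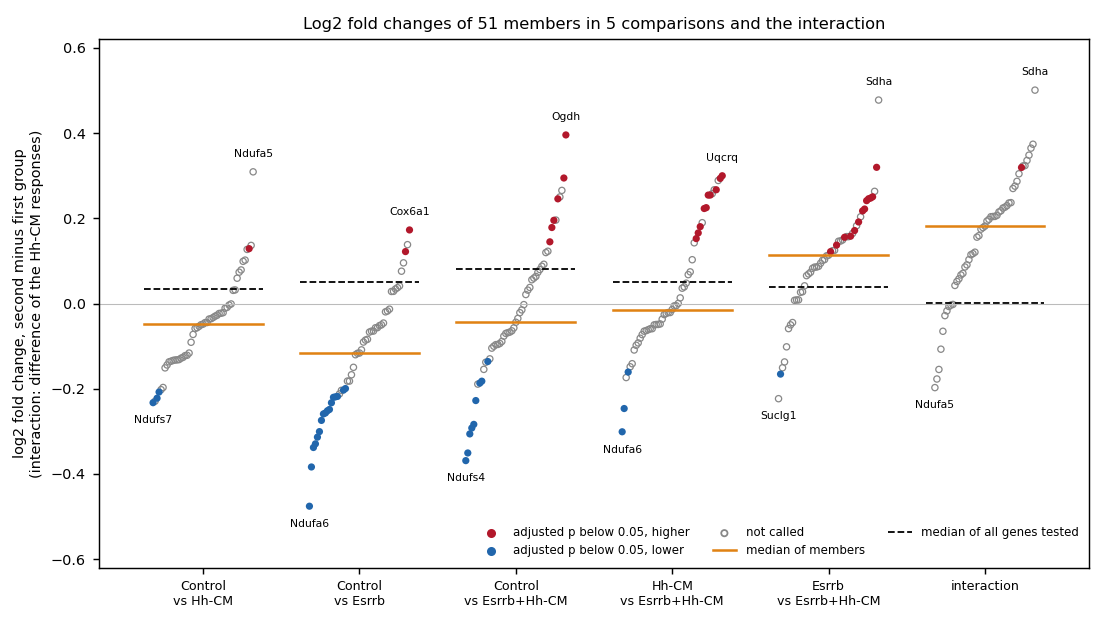
Log2 fold changes (second minus first group) of the 51 genes without a value of 0, sorted within each of the 5 comparisons and the interaction, with called genes filled red (higher) or blue (lower), an orange line at the median of the 51 genes and a dashed line at that of all tested genes. The orange line lies at -0.12 in Control vs Esrrb and at 0.11 in Esrrb vs Esrrb+Hh-CM, where the dashed lines lie at 0.05 and 0.04.

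Summed over the 51 genes, FPKM was 7107 and 6940 in Control cells, 6793 and 6701 in Hh-CM cells, 6480 and 6387 in Esrrb cells and 7200 and 6674 in Esrrb+Hh-CM cells. The Esrrb libraries had the lowest sums, and the 2 Esrrb+Hh-CM libraries lay further apart than those of any other condition. As a share of the summed FPKM of all tested genes, the 51 genes made up 1.31% in both Control libraries, 1.29% in both Hh-CM libraries, 1.32% and 1.31% in Esrrb and 1.41% and 1.35% in Esrrb+Hh-CM cells. By this share, unlike by the sum, the Esrrb libraries were not the lowest. Complex I summed to 1402 and 1341 FPKM in Esrrb cells and to between 1470 and 1577 FPKM in the other 6 libraries.

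The promoters of 4 genes whose transcripts changed are shown because 2 were up-regulated and 2 down-regulated in Esrrb+Hh-CM against Control cells. The sequences are the 250 bases before the transcription start in RefSeq (GRCm38.p6, which is not the build of the expression files), 5′ to 3′ on the strand of the gene. Capitals mark the letters CGCATGCG, the core that NRF1 is known to bind, and CCGGAAG or its complement, a site of ETS factors such as GABPA. The first 2 are Cox6a1 (chr5:115348959-115349208, minus strand) and Ogdh (chr11:6292308-6292557, plus strand, 1 of its 6 listed starts), and the last 2 are Ndufa6 (chr15:82354292-82354541, minus strand) and Ndufb10 (chr17:24724424-24724673, minus strand).
Cox6a1: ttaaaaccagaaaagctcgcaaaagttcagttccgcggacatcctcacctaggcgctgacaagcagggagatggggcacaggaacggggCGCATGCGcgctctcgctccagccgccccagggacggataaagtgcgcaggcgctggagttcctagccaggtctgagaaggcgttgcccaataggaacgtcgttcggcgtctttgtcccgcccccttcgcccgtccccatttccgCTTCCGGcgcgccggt
Ogdh: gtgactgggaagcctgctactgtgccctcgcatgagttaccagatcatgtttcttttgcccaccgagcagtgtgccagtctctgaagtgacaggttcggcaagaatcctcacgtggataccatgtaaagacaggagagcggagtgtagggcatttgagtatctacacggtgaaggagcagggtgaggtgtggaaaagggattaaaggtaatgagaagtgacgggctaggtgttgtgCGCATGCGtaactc
Ndufa6: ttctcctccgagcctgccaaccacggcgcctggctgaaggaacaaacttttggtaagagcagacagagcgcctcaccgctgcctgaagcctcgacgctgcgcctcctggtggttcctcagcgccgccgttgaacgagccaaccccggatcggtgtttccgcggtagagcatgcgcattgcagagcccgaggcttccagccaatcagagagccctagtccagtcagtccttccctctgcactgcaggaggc
Ndufb10: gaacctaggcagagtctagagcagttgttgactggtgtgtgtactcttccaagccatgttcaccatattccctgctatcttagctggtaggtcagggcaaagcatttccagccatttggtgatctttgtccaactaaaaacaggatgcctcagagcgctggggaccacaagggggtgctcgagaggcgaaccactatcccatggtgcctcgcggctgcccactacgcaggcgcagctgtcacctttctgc

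In these windows Cox6a1 held 1 copy of each motif, its NRF1 core starting 161 bases and its ETS letters 16 bases before the start, and the Ogdh window held 1 NRF1 core starting 14 bases before the start. Of the 6 listed Ogdh starts, 2 that overlap hold this core and the other 4 do not. Of the other genes up-regulated in the same comparison, Ndufb7 held the ETS letters, and Cs, Fh1 and Atp5b held none of the letters searched, so the 4 windows shown do not stand for up- and down-regulated genes at large. The Ndufa6 and Ndufb10 windows held none of the letters searched. RefSeq promoters were found for 43 of the 55 genes, 51 promoters in all, and both strands were searched. CGCATGCG was in 5 of the 51 promoters (9.8%), of Cox6a1, Cycs, Ndufa8 and Ogdh, and in 1.55% of all 32851 promoters. CCGGAAG was in 5 (9.8%), of Cox6a1, Idh3g, Ndufb7, Ndufs3 and Sdhd, and in 6.91% of all promoters. TNAAGGTCA, the element that oestrogen-related receptors are known to bind, was in 0 of the 51 promoters and in 1.14% of all promoters, and its core AAGGTCA, which lies within it, was in the promoter of Ndufb2 alone and in 4.08% of all promoters. The median GC content was 57.6% in the 51 promoters and 52.4% in all, and the median ratio of observed to expected CpG was 0.806 against 0.373. Several of the 51 promoters are starts of 1 gene that overlap each other, and a match of letters does not show that a factor binds.

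Of the tested known regulators of nuclear respiratory genes, Ppargc1a had the smallest adjusted p by limma in each comparison between the vectors. This gene encodes the coactivator PGC-1alpha. It had 2.57 and 2.75 FPKM in Control cells, 2.67 and 2.84 in Hh-CM cells, 0.234 and 0.246 in Esrrb cells and 0.377 and 0.457 FPKM in Esrrb+Hh-CM cells. The 4 libraries with the Esrrb label all lay far below the 4 without it. Ppargc1a thus met the limit of 1 FPKM only through the Control and Hh-CM libraries. A regulator as low in every library as Ppargc1a was with the Esrrb label would not have been tested. The log2 fold change was -3.02 ± 0.171 (SE, adjusted p = 0.000493) from Control to Esrrb, -2.42 (adjusted p = 0.000266) from Control to Esrrb+Hh-CM and -2.47 (adjusted p = 0.000956) from Hh-CM to Esrrb+Hh-CM cells. The change from Esrrb to Esrrb+Hh-CM cells was not called (log2 0.60 ± 0.171 SE, adjusted p = 0.0552). Without both libraries that share loci the 3 called values of Ppargc1a were -2.99, -2.42 and -2.43, and all stayed called (adjusted p = 0.0211, 0.00477 and 0.0272). Pprc1, which encodes a related coactivator, was up-regulated from 11.9 and 11.7 FPKM in Control to 14.55 and 14.5 FPKM in Esrrb+Hh-CM cells (log2 0.30, adjusted p = 0.0133). The other 8 tested regulators were not called in any comparison by limma. They included the transcription factor genes Nrf1 (8.09 to 11.8 FPKM), Gabpa (15.1 to 20.03 FPKM), Gabpb1 (9.96 to 13.9 FPKM) and Yy1 (32.4 to 38.1 FPKM). The rest were Tfam, Tfb1m, Tfb2m and Polrmt, whose products act in mitochondria. Of all tested genes 46% were called in at least 1 comparison or the interaction. In so short a list, the lack of calls does not show that these genes were unchanged. Tfb1m was listed at 0 in Hh-CM replicate 2 and between 3.78 and 7.07 FPKM in the other libraries. Ppargc1b lay between 0.292 and 0.6675 FPKM and Esrrg at 0.0368 FPKM or less, both under the FPKM limit. Esrra, the relative of Esrrb best known for control of these genes, was listed at 0 in all 8 libraries. Surf1, an assembly factor of complex IV that cells in general use, was also listed at 0 in all 8, so a listed 0 does not show that a gene was not expressed.

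**Figure D5:**
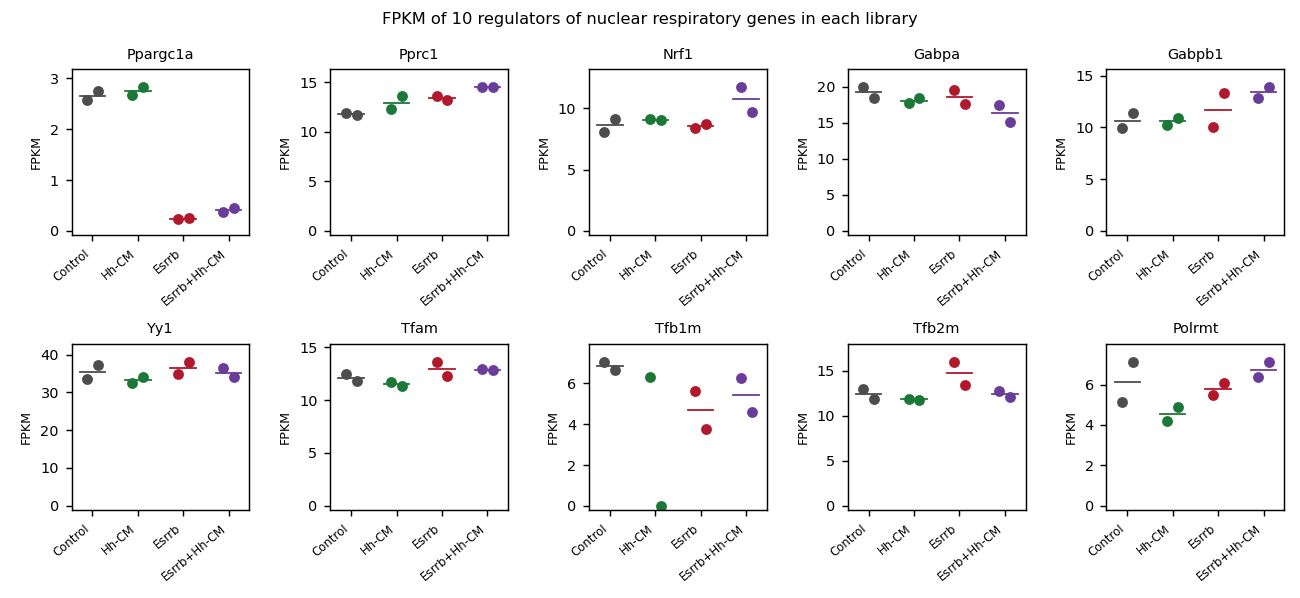
FPKM of the 10 tested regulators in each library, with 2 points per condition and a line at their mean (no line where a library is listed at 0). Ppargc1a lies between 2.57 and 2.84 FPKM in the 4 libraries without the Esrrb label and between 0.234 and 0.457 FPKM in the 4 with it, and the values of the other 9 genes overlap between these 4 and 4 libraries.

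Other subunits of the same complexes, 31 genes that are not among the 55, had 26 tested. From Control to Esrrb cells 6 of the 26 were down-regulated and none up-regulated. That is 23.1% of them, where 6.16% of all tested genes were down-regulated and 10.2% up-regulated. The median log2 fold change of the 26 was -0.14 (-0.09 without both libraries that share loci), and that of all tested genes was 0.05. The smallest adjusted p-values were those of Cox7a2l, a factor of supercomplex assembly with 306.9 and 310.3 against 223.7 and 226.9 FPKM (log2 -0.45, adjusted p = 0.00193), Uqcrh of complex III with 635.9 and 609.4 against 470.0 and 476.0 FPKM (log2 -0.40), and Atp5g2 of the ATP synthase ring with 338.8 and 336.4 against 275.7 and 285.1 FPKM (log2 -0.27). Atp5k, Uqcr10 and Ndufb4 were the other 3. From Hh-CM to Esrrb+Hh-CM cells Ndufa12 of complex I rose from 87.7 and 84.0 to 121.2 and 106.7 FPKM (log2 0.41). In the other comparisons 2 fell (Control to Hh-CM), 5 fell (Control to Esrrb+Hh-CM), 3 fell and 1 rose (Hh-CM to Esrrb+Hh-CM), and 2 rose (Esrrb to Esrrb+Hh-CM). None passed in the interaction, where limma gave 5 with an unadjusted p below 0.05. In the same 4 pairwise comparisons 7.53%, 12%, 6.52% and 9.51% of all tested genes fell and 10.5%, 23%, 12.4% and 13.9% rose. Ndufa13 (also in the interaction) and Atp5l were called without both libraries that share loci, but not with all 8 libraries. They had 207.4 and 464.8 FPKM in Hh-CM replicate 1, and 58.0 and 260.2 FPKM in Hh-CM replicate 2. With both libraries that share loci left out, 1 of the 26 (Cox7a2l) fell from Control to Esrrb and 6 fell from Control to Esrrb+Hh-CM cells.

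Of 10 other genes of the citrate cycle and of pyruvate metabolism, Suclg2, the GTP-specific subunit of succinyl-CoA ligase, had the smallest adjusted p in each of the 5 comparisons. It had 96.6 and 98.1 FPKM in Control cells, 80.5 and 79.8 in Hh-CM cells, 81.5 and 79.1 in Esrrb cells and 67.6 and 65.8 FPKM in Esrrb+Hh-CM cells. It was thus lower with ligand and lower with the Esrrb label, and lowest with both (Control to Esrrb+Hh-CM log2 -0.54 ± 0.0336 SE, adjusted p = 0.000167). Idh2, the NADP-dependent mitochondrial isocitrate dehydrogenase, had 157.1 and 158.9 FPKM in Control and 204.8 and 205.2 FPKM in Hh-CM cells. It had 167.1 and 177.9 FPKM in Esrrb and 266.2 and 216.1 FPKM in Esrrb+Hh-CM cells, with the 2 latter libraries far apart. Idh2 was up-regulated with ligand with either vector, and from Control to Esrrb+Hh-CM cells (log2 0.60, limma adjusted p = 0.00556). Its locus did not have the same start and end in all libraries. Pcx, pyruvate carboxylase, was down-regulated from Control to Hh-CM cells (log2 -0.43) and up-regulated from Control to Esrrb cells (log2 0.56). Dlat, the acetyltransferase of the pyruvate dehydrogenase complex, was down-regulated from Control (19.9 and 18.7 FPKM) to Esrrb+Hh-CM cells (14.3 and 16.1 FPKM), with log2 -0.34. Counted over the list, 1 rose and 2 fell from Control to Hh-CM, 1 rose and 1 fell from Control to Esrrb, and 2 rose and 2 fell from Control to Esrrb+Hh-CM cells. From Hh-CM to Esrrb+Hh-CM cells 1 rose and 1 fell, and from Esrrb to Esrrb+Hh-CM cells 1 rose and 3 fell. With 10 genes these counts are too small to set against the shares of all genes. Without both libraries that share loci Suclg2 stayed called from Control to Esrrb+Hh-CM cells and in no other comparison, with adjusted p between 0.0561 and 0.0704 in the other 4.

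Fatty acid oxidation feeds the same chain. Cpt1a, which encodes the liver form of the carnitine palmitoyltransferase that admits fatty acids to mitochondria, had 66.5 and 66.3 FPKM in Control and 28.7 and 29.0 FPKM in Hh-CM cells (log2 -1.20, adjusted p = 3.01e-05). It had 76.0 and 78.3 FPKM in Esrrb and 30.2 and 30.1 FPKM in Esrrb+Hh-CM cells (adjusted p = 1.65e-05). Pdk4, a kinase that inhibits pyruvate dehydrogenase, had 72.1 and 74.0 FPKM in Control cells, 33.9 and 33.5 in Hh-CM cells, 65.6 and 66.2 in Esrrb cells and 19.3 and 20.1 FPKM in Esrrb+Hh-CM cells. With ligand its log2 fold change was -1.11 with the empty vector and -1.74 with the Esrrb vector, and this interaction was called (log2 -0.62 ± 0.052 SE, adjusted p = 0.00841). Without both libraries that share loci the interaction of Pdk4 was -0.64 (adjusted p = 0.115), while the falls of Cpt1a and Pdk4 with ligand stayed called with either vector. Cpt2, the second enzyme of that import, was higher in Hh-CM (30.4 and 32.8 FPKM) than in Control cells (22.7 and 22.5 FPKM), with log2 0.48. Hadha, of the trifunctional protein, had 49.0 and 48.0 FPKM in Control and 42.7 and 40.9 FPKM in Esrrb cells. From Hh-CM to Esrrb+Hh-CM cells Acadvl, an acyl-CoA dehydrogenase, fell by 0.23 and Etfb, of the electron transfer flavoprotein, rose by 0.15 on the log2 scale. Over the 13 tested genes 1 rose and 3 fell from Control to Hh-CM, 1 rose and 2 fell from Control to Esrrb, and 1 rose and 4 fell from Control to Esrrb+Hh-CM cells. In each of the other 2 pairwise comparisons 1 rose and 2 fell. Of all tested genes, 10.5% rose and 7.53% fell from Control to Hh-CM, and 10.2% and 6.16% from Control to Esrrb. From Control to Esrrb+Hh-CM cells these shares were 23% and 12%. From Hh-CM to Esrrb+Hh-CM cells 12.4% rose and 6.52% fell, and from Esrrb to Esrrb+Hh-CM cells 13.9% and 9.51%. A rise of 1 gene of 13 is thus a share near or below that of all genes. The falls were a larger share than that of all genes in each comparison, but 13 genes are few and the list as a whole was not tested. Without both libraries that share loci, 1 rose and 2 fell from Control to Hh-CM, none passed from Control to Esrrb, and 1 rose and 3 fell from Control to Esrrb+Hh-CM cells.

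Of 18 assembly factors 16 were tested. Of all tested genes, 10.5% rose and 7.53% fell from Control to Hh-CM, and 10.2% and 6.16% from Control to Esrrb. From Control to Esrrb+Hh-CM cells these shares were 23% and 12%, and in the interaction 0.758% and 0.593%. From Hh-CM to Esrrb+Hh-CM cells 12.4% rose and 6.52% fell, and from Esrrb to Esrrb+Hh-CM cells 13.9% and 9.51%. Counts of calls among 16 genes are too small to set against these shares. Ttc19, of complex III, was up-regulated from Control (8.85 and 9.21 FPKM) to Esrrb cells (16.5 and 12.95 FPKM) by 0.69 on the log2 scale and was down-regulated from Esrrb to Esrrb+Hh-CM cells. Cox17, a copper chaperone, fell by 0.53 and Cox10, of heme A synthesis, rose by 0.48 from Control to Esrrb+Hh-CM cells, each with 1 library of the latter nearer to Control. No assembly factor passed from Control to Hh-CM or from Hh-CM to Esrrb+Hh-CM cells, where limma gave 2 in each with an unadjusted p below 0.05, or in the interaction, where it gave 1. Of 9 carriers and channels, Slc25a5, an adenine nucleotide translocase, was up-regulated from Control (164.1 and 161.1 FPKM) to Esrrb cells (187.9 and 182.0 FPKM) and to Esrrb+Hh-CM cells (219.3 and 206.5 FPKM), the latter by 0.39 on the log2 scale (adjusted p = 0.00108). Vdac2, a channel of the outer membrane, fell by 0.23 from Control to Esrrb+Hh-CM cells. In the fit lacking both libraries that share loci Ttc19, Cox17 and Cox10 were no longer called, and Slc25a5 and Vdac2 stayed called from Control to Esrrb+Hh-CM cells. That fit also called Ndufaf1 and Ucp2, which the fit of all libraries did not. Each had its highest value in a library then alone in its group. Ndufaf1 had 15.8 FPKM in Esrrb replicate 2, and Ucp2 had 18.3 FPKM in Hh-CM replicate 1. Of 9 isoforms restricted to muscle, testis or other tissues, Cox6a2 was tested, at 0.866 to 1.83 FPKM, and was not called, with no unadjusted p below 0.05. The others lay at 0.312 FPKM or less or, for Cox7a1, were not matched.

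The subunits encoded by mitochondrial DNA were assembled as 1 locus over nearly the whole mitochondrial genome, so single genes could not be read. That locus had 1855 and 1752 FPKM in Control cells, 1962 and 1727 in Hh-CM cells, 1584 and 1742 in Esrrb cells and 1483 and 1638 FPKM in Esrrb+Hh-CM cells. Control values overlapped those of Hh-CM cells, and Esrrb values overlapped those of Hh-CM and of Esrrb+Hh-CM cells. Both Control libraries lay above both Esrrb and both Esrrb+Hh-CM libraries, and both Hh-CM libraries lay above both Esrrb+Hh-CM libraries. No test was made on them.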

How the data were processed

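RNA-Seq of 8 NIH3T3 libraries (TruSeq Stranded mRNA kit, one Illumina lane) was used as deposited. The authors trimmed reads with FASTX-Toolkit, aligned them with TopHat2 and Bowtie2 to the mm9 build, and assembled each library separately with reference-guided Cufflinks on Galaxy. Versions are not given in the sources used here. The deposited values are FPKM per assembled locus, which the study calls RPKM. They hold no counts, so absolute depth is unknown, and loci assembled per library can differ in extent: start and end were identical across libraries for 42 of the 52 tested genes and for 54.7% of all tested genes. The study's Cuffmerge and Cuffdiff step was not repeated.

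Loci were assigned to genes by position (overlap of at least 0.5). Genes with an FPKM of 1 or more in at least 2 libraries were tested with limma 3.58.1 (R 4.3.3, empirical Bayes with a variance trend) on log2(FPKM + 0.1), all 4 groups in one fit with 4 residual degrees of freedom, with Benjamini-Hochberg adjustment over all genes. Fold changes on this scale understate changes of low genes. The script was tested on simulated data.

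The genes and lists were chosen with earlier results of these data known. Genes were named by a rule: the 25 with the smallest adjusted p among those that passed, the highest and lowest of each complex, those with values of 0 or unmatched, the 3 genes with the smallest adjusted p of each other list where they passed, detected regulators, and Esrrb, Gli1 and Ptch1. The remaining genes that passed, and Sdha, Ndufa5, Cox6c and Eef1b2, were named after their values were seen. Python 3.11.15, numpy 2.4.6 and pandas 2.3.3 were used.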

Additional observations from a re-analysis of the deposited data

Results flagged for a closer look

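Ndufb10 differed between groups in its response to ligand. The change from Esrrb to Esrrb+Hh-CM cells minus that from Control to Hh-CM cells was 0.32 ± 0.0441 on the log2 scale (SE, limma adjusted p = 0.0401). With 1 library left out the value lay between 0.30 and 0.34, and the adjusted p between 0.052 and 0.123. Its Esrrb libraries (122.5 and 124.1 FPKM) were the lowest pair of the 4 conditions. Groups of 2 libraries are too small for a test of single outlying samples.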

How the results depend on the processing

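The counts of called genes were 4 (Control to Hh-CM), 19 (Control to Esrrb), 16 (Control to Esrrb+Hh-CM), 13 (Hh-CM to Esrrb+Hh-CM), 14 (Esrrb to Esrrb+Hh-CM) and 1 (interaction). In that order of comparisons, leaving out 1 library gave 0 to 7, 4 to 18, 8 to 17, 3 to 11, 4 to 16 and 0 to 2 calls. A further limit of log2 1 left 0, 0, 1, 0, 0 and 0. With the compared groups alone the counts for Control to Hh-CM, Control to Esrrb, Hh-CM to Esrrb+Hh-CM and Esrrb to Esrrb+Hh-CM were 2, 9, 2 and 4. Without an FPKM limit these 4 counts were 1, 12, 8 and 7, and without a variance trend 0, 12, 8 and 5, with 0 for the interaction. Rescaled FPKM gave 8 for Control to Hh-CM, 7 for Esrrb to Esrrb+Hh-CM and 2 for the interaction. Added after seeing the data, leaving out both libraries that share loci gave 1, 2, 1 and 1 for the same 4 comparisons, and keeping genes with identical loci gave 2 for the interaction. The replicate block gave 1, 8 and 0 calls for Control to Hh-CM, Esrrb to Esrrb+Hh-CM and the interaction, and it moved no other count by more than 1.5 times. Replicate numbers did not pair the samples: deviations of same-numbered libraries correlated between -0.12 and 0.075 over 10033 genes. The cause of these changes was not tested. Of the 67 called gene and comparison pairs, 9 passed under every alternative but the log2 limit, and none changed sign. The median of the 51 genes changed sign from Hh-CM to Esrrb+Hh-CM cells, from -0.01 to 0.01 without Hh-CM replicate 2 or both libraries that share loci and to 0.02 without Esrrb+Hh-CM replicate 2, and in no other comparison. Pseudocounts of 0.001 and 1, a minimum overlap of 0.8 and summed loci changed no count by more than 1.5 times. Depth limits genes of low FPKM most.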
